A study of Homo sapiens with 12 samples.

Results

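The genes described here are the 3 TGF-beta ligands, their 2 signalling receptors, 2 latent binding proteins, and 3 genes known to respond to the pathway, in cultured human podocytes given a calcineurin inhibitor. The 10 genes, TGFB1, TGFB2, TGFB3, TGFBR1, TGFBR2, LTBP1, LTBP2, SKIL, TGFBI and BHLHE40, were taken by name from a table of 62262 genes, and all 10 were among the 19784 that passed the filter on low counts. They were chosen with earlier results in view: TGFBI, SKIL and BHLHE40 were chosen by their fitted fold change between tacrolimus and DMSO, in which they were higher with tacrolimus. Differences of the 10 genes that involve the tacrolimus libraries are therefore given as a description, without a test.

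Podocytes are the epithelial cells on the outer side of the glomerular capillaries, and the line used carries a temperature-sensitive SV40 large T gene, which is active at 33 °C. Cells were differentiated at 37 °C for 7 to 10 days. The groups were tacrolimus (TAC) at 100 nM, cyclosporine A (CSA) at 100 nM, voclosporin (VCS) at 100 nM, and the vehicle DMSO, each for 24 h and with 3 libraries numbered 1 to 3. All 3 compounds inhibit the phosphatase calcineurin; voclosporin is a structural analog of cyclosporine A, and tacrolimus is a macrolide that acts through another binding protein. Whether the line is 1 clone, and whether the libraries of a group came from separate cultures, is not stated, so p-values measure only the spread between these libraries, which may be technical.

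TGF-beta ligands are secreted as latent complexes, in which the mature dimer stays bound to its propeptide and is tethered to the matrix by latent TGF-beta binding proteins. Released ligand binds the type II receptor, which phosphorylates the type I receptor, which in turn phosphorylates SMAD2 and SMAD3; these enter the nucleus with SMAD4 and act on target genes. In the glomerulus the pathway is known for its role in matrix accumulation and podocyte loss. RNA levels do not measure latent or active ligand, or SMAD phosphorylation. In bulk RNA, fewer cells of a type and less RNA per cell cannot be told apart.

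The promoter windows of the 3 responsive genes are shown first, because they are the genes whose TAC libraries stood apart from the DMSO libraries. Each window runs from 250 bases before the RefSeq start to 50 bases after it (RefSeq, GRCh38.p14), 5′ to 3′ on the plus strand, the strand of all 3 genes. Capitals mark 4 motifs searched on both strands: CAGAC, the core of the SMAD-binding element (written GTCTG when it lies on the other strand); GGCGCC, a site known for SMADs of the BMP branch; CACGTG, an E-box, the kind of site that the BHLHE40 protein binds; and TGANTCA, the AP-1 site. No capitals belong to more than 1 of these motifs.
TGFBI: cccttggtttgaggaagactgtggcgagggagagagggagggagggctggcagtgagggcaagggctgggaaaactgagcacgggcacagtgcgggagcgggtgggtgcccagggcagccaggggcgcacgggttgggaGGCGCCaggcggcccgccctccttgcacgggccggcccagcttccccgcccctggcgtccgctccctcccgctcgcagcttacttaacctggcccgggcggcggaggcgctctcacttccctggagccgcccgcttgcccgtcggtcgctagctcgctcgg
SKIL: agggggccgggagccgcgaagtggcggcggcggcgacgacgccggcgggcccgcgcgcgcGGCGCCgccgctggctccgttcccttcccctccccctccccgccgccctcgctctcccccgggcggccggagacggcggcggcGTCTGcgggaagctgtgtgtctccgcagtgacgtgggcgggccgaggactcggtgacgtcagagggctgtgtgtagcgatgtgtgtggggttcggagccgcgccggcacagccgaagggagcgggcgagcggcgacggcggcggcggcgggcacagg
BHLHE40: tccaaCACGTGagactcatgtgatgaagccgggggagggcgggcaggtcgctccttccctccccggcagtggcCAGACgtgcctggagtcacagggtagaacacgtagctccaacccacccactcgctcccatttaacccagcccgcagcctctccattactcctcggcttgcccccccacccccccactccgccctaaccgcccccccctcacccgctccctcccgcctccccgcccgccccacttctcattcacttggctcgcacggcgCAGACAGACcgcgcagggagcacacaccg
The TGFBI window (chr5:136028738-136029037) held GGCGCC, and CAGAC was not among its letters. The SKIL window (chr3:170357465-170357764) held 1 CAGAC and 1 GGCGCC, and the BHLHE40 window (chr3:4979187-4979486) held 3 CAGAC, 2 of which share a base, and 1 CACGTG. Among 35116 RefSeq windows of 300 bases, 45.3% held CAGAC, 19.2% GGCGCC, 7.71% TGANTCA and 7.26% CACGTG. Counting a gene once if any of its windows matched, CAGAC lay in 7 of the 10 genes, GGCGCC in 4, CACGTG in 3 and TGANTCA in 1, which was TGFBR2; several of the genes have more than 1 window, so these counts and the shares per window are on different bases. A match describes the letters and is no measured binding site.

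Library totals ran from 28808213 to 36077072 counts. Mitochondrial genes took 9.68 to 13.4% of counts in the library numbered 3 of each group, against 5.82 to 8.12% in the other libraries. Among the podocyte markers checked, the nephrin gene NPHS1 ranged over 1 to 11 counts, while SYNPO, encoding synaptopodin, was at 41.9 to 67.3 CPM (counts scaled to the effective size of the library). The cells therefore carried this podocyte cytoskeletal transcript but very little of the slit diaphragm transcript NPHS1. COL1A1, a fibroblast collagen and also a TGF-beta responsive gene, was at 3295 to 5455 CPM.

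Among the ligands, TGFB2 was the most abundant per length. Divided by the merged exon length, TGFB2 averaged 38.1 ± 3.36 CPM per kb in TAC, 41.8 ± 9.56 in CSA, 38.8 ± 5.40 in VCS and 35.1 ± 4.35 in DMSO (SD, n = 3 each). TGFB1 averaged 17.3 ± 1.44 CPM per kb in TAC, 22.9 ± 2.59 in CSA, 18.2 ± 1.44 in VCS and 19.8 ± 1.75 in DMSO. TGFB3 stood far below both, at 63 to 99 counts per library. Shares were taken of the 3 ligands' summed level per length. TGFB2 held a mean of 68.2% in TAC, 63.7% in CSA, 67.2% in VCS and 63.3% in DMSO, and TGFB1 held 31.0%, 35.4%, 31.9% and 35.9% in the same order. Over single libraries the TGFB2 share was 64.9 to 70.3% in TAC and 61.2 to 66.8% in CSA. It was 61.8 to 70.1% in VCS and 61.1 to 65.4% in DMSO, so the groups overlapped.

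TGFB1 (chromosome 19, 41301587 to 41353911, minus strand, GRCh38) encodes the ligand best known for renal fibrosis. It had 57.8, 50.5 and 59.3 CPM in the 3 TAC libraries, 73.1, 66.6 and 83.2 CPM in CSA, 58.9, 54.4 and 63.7 CPM in VCS, and 67.2, 57.7 and 67.8 CPM in DMSO. The CSA libraries lay above all TAC and all VCS libraries and overlapped those of DMSO. The TAC and VCS libraries both overlapped DMSO. The TGFB1 log2 fold change against DMSO was -0.20 (SE 0.11) in TAC, 0.21 (SE 0.11) in CSA and -0.12 (SE 0.11) in VCS. Within the libraries of the same number, TAC minus DMSO was -0.22, -0.19 and -0.19 on the log2 scale. CSA minus DMSO was 0.12, 0.21 and 0.30, and VCS minus DMSO was -0.19, -0.08 and -0.09. Exons of HNRNPUL1 on the opposite strand cover 6.64% of TGFB1's exon length, and with 6770 to 10092 counts that gene is more abundant; whether counting used the strand is not stated, so reads in the shared 215 bases cannot be assigned to either gene.

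TGFB2 (chromosome 1, 218346235 to 218444619, plus strand) had 214, 196 and 179 CPM in TAC, 187, 187 and 272 CPM in CSA, 222, 209 and 168 CPM in VCS, and 206, 163 and 174 CPM in DMSO. All groups overlapped, and the highest value was that of CSA library 3. The log2 fold change of TGFB2 against DMSO was 0.12 (SE 0.16) in TAC, 0.25 (SE 0.16) in CSA and 0.14 (SE 0.16) in VCS; without CSA library 3 the CSA value was 0.05.

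The TGFB2 count depends on how reads are divided with TGFB2-OT1, a non-coding transcript on the same strand whose exons share 1371 bases, or 26.6%, of TGFB2's exon length. TGFB2-OT1 had 348, 679 and 1879 counts in TAC, 483, 696 and 965 counts in CSA, 250, 286 and 2015 counts in VCS, and 583, 1203 and 1727 counts in DMSO. It was highest in the library numbered 3 of every group, the libraries with the largest mitochondrial share. With both genes added, the levels were 224.0, 216.0 and 236.6 CPM in TAC, 201.1, 209.6 and 300.3 CPM in CSA, 229.7, 217.5 and 240.4 CPM in VCS, and 223.6, 199.8 and 230.7 CPM in DMSO. In the sum, library 3 was the highest of each group, whereas for TGFB2 alone it was the lowest of TAC and of VCS. The part that the division of reads has in these differences was not tested.

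**Figure D1:**
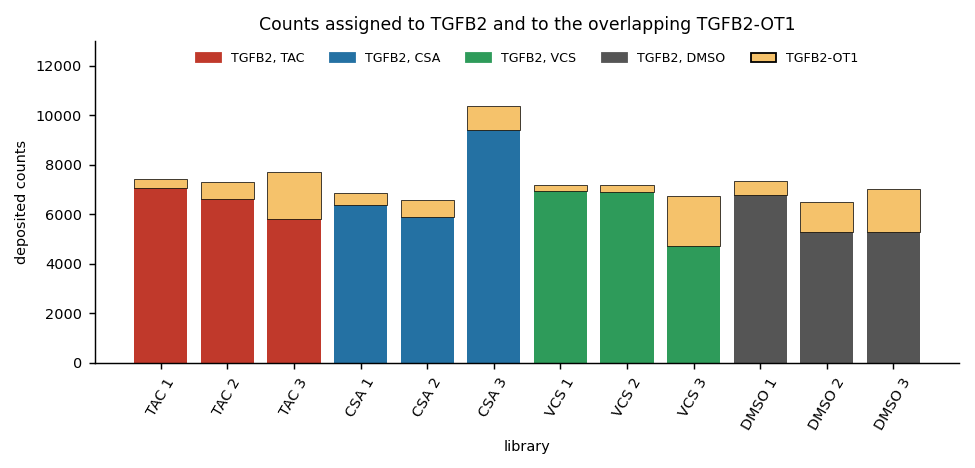
Deposited counts (vertical axis) assigned to TGFB2 (coloured by group) and to TGFB2-OT1 (yellow, stacked on top) in each of 12 libraries. The yellow part is tallest in the library numbered 3 of each group, reaching 2015 counts in VCS library 3 against 250 in VCS library 1.

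TGFB3 (chromosome 14, 75958099 to 75982991, minus strand) was at 1.90 to 2.37 CPM in TAC, 2.20 to 2.87 CPM in CSA, 2.24 to 2.50 CPM in VCS and 2.13 to 2.54 CPM in DMSO, so all groups overlapped. Its log2 fold change against DMSO was -0.06 in TAC, 0.19 in CSA and 0.06 in VCS, each with an SE of 0.18.

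The 2 latent binding proteins differed in level. LTBP2 (chromosome 14, 74498170 to 74612378, minus strand), a matrix protein of the same family that does not bind the latent complex, averaged 24.2 ± 3.70 CPM per kb in TAC and 21.1 ± 3.32 CPM per kb in DMSO, whereas LTBP1 (chromosome 2, 32946972 to 33399509, plus strand), which tethers the latent complex to the matrix, averaged 3.87 ± 0.485 CPM per kb in TAC and 3.93 ± 0.266 CPM per kb in DMSO (SD, n = 3 each). LTBP1 had 32.4, 27.1 and 25.6 CPM in TAC, 33.3, 32.0 and 39.7 CPM in CSA, 39.4, 34.5 and 28.5 CPM in VCS, and 31.0, 27.9 and 27.5 CPM in DMSO. The CSA libraries of LTBP1 all lay above the DMSO libraries, while those of TAC and VCS overlapped DMSO. LTBP2 had 251, 224 and 184 CPM in TAC, 228, 214 and 276 CPM in CSA, 246, 231 and 174 CPM in VCS, and 226, 173 and 176 CPM in DMSO. Its groups all overlapped, and in TAC and VCS library 3 was the lowest.

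Both receptors were present in every library. TGFBR1 (chromosome 9, 99104038 to 99154192, plus strand), the type I receptor kinase, had 239, 216 and 217 CPM in TAC, 202, 187 and 259.7 CPM in CSA, 243, 224 and 230.5 CPM in VCS, and 219.6, 182 and 208 CPM in DMSO. The VCS libraries all lay above the DMSO libraries, by a log2 fold change of 0.19 (SE 0.12), and TAC and CSA overlapped DMSO. TGFBR2 (chromosome 3, 30606502 to 30694142, plus strand), the type II receptor, had 86.1, 79.1 and 57.9 CPM in TAC, 81.7, 71.9 and 88.0 CPM in CSA, 89.8, 94.0 and 63.5 CPM in VCS, and 80.9, 65.1 and 60.8 CPM in DMSO. For TGFBR2 all groups overlapped, and library 3 was the lowest of TAC, VCS and DMSO but the highest of CSA.

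SKIL (chromosome 3, 170357678 to 170396835, plus strand) encodes SnoN, a nuclear corepressor that binds SMAD proteins and is itself induced by TGF-beta as a feedback inhibitor. It had 70.7, 55.1 and 63.5 CPM in TAC, 50.3, 41.0 and 44.0 CPM in CSA, 55.8, 43.2 and 47.7 CPM in VCS, and 53.1, 47.1 and 44.6 CPM in DMSO. Every TAC library lay above every CSA and DMSO library, and TAC library 2 lay below VCS library 1. The SKIL log2 fold change of TAC was 0.39 (SE 0.12) against DMSO, 0.48 (SE 0.12) against CSA and 0.37 (SE 0.12) against VCS.

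TGFBI (chromosome 5, 136028895 to 136063818, plus strand) encodes a secreted matrix protein named for its induction by TGF-beta. It had 1279, 1320.4 and 1204 CPM in TAC, 998.0, 867 and 1029 CPM in CSA, 1020.0, 974 and 898 CPM in VCS, and 927, 847 and 813 CPM in DMSO. All 3 TAC libraries lay above all 9 others, and the other 3 groups overlapped one another. The fitted TAC level was 1.47-fold that of DMSO, a log2 fold change of 0.56 (SE 0.10). Within the libraries of the same number the TAC minus DMSO difference of TGFBI was 0.46, 0.64 and 0.57 on the log2 scale. CSA minus DMSO was 0.11, 0.03 and 0.34, and VCS minus DMSO was 0.14, 0.20 and 0.14.

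BHLHE40 (chromosome 3, 4979116 to 4985323, plus strand) encodes a basic helix-loop-helix repressor, also called DEC1, known for feedback in the circadian clock and as a gene that TGF-beta can induce. It had 96.1, 89.2 and 88.0 CPM in TAC, 73.6, 70.3 and 73.7 CPM in CSA, 84.5, 76.7 and 73.5 CPM in VCS, and 74.8, 61.7 and 74.3 CPM in DMSO. As with TGFBI, the 3 TAC libraries lay above all 9 others. The BHLHE40 log2 fold change of TAC was 0.37 (SE 0.09) against DMSO, 0.33 (SE 0.09) against CSA and 0.22 (SE 0.09) against VCS. Of all 19784 genes tested, 184 had their TAC libraries above all 9 others, or 0.93%; these 2 genes are members because of that contrast, so nothing is read from their share.

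**Figure D2:**
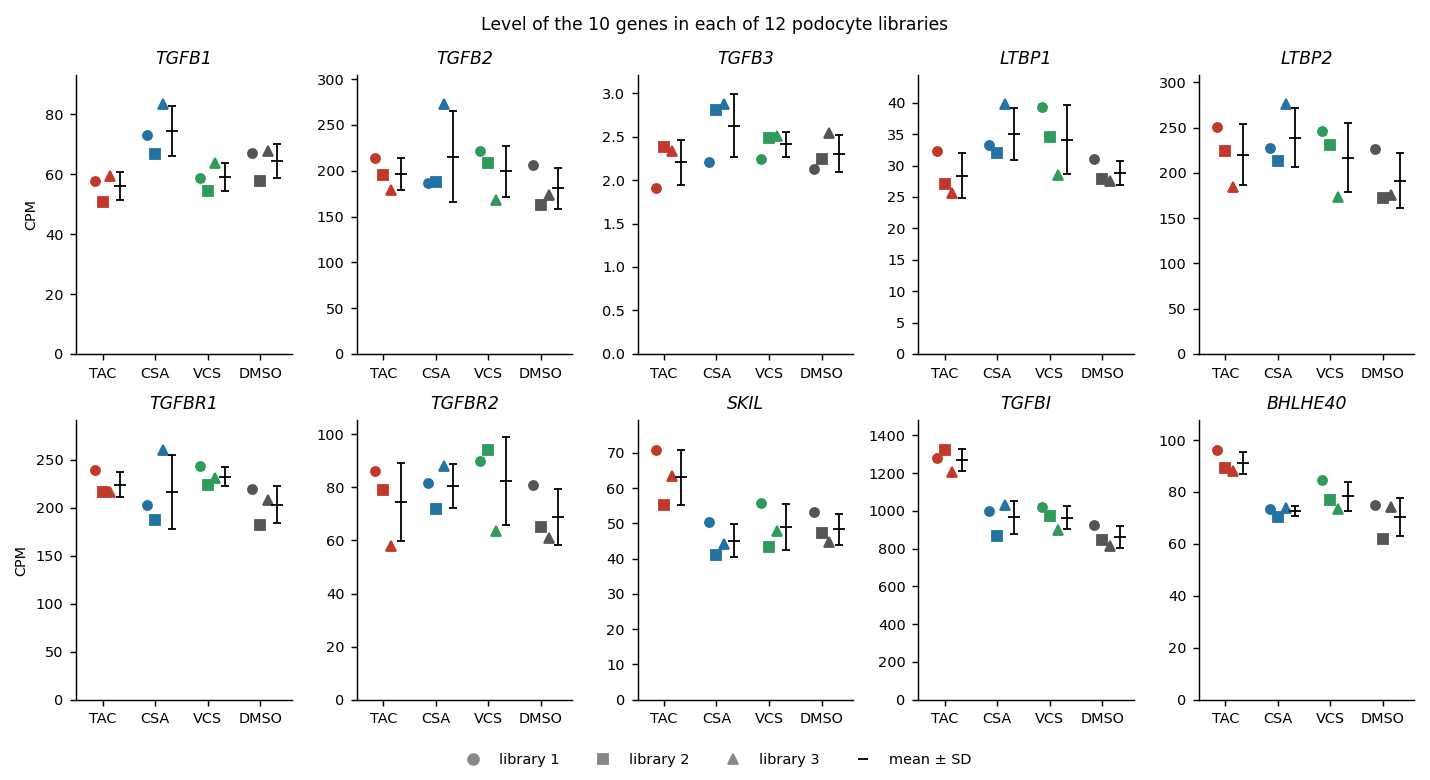
Level of each of the 10 genes in CPM (vertical axis, from 0) in the 3 libraries of TAC, CSA, VCS and DMSO, with the library number as the symbol and the mean ± SD (n = 3) beside the points. For TGFBI and BHLHE40 the 3 TAC points lie above all others, for TGFB1 the CSA points lie above those of TAC and VCS, and for most ligand and receptor genes the groups overlap.

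Ordered by mean level per length over the 12 libraries, TGFBI came first with 129.9 CPM per kb, followed by TGFB2 with 38.4, TGFBR1 with 32.0, LTBP2 with 23.9, BHLHE40 with 20.3, TGFB1 with 19.6, TGFBR2 with 16.3, SKIL with 6.60, LTBP1 with 4.31 and TGFB3 with 0.486. Neighbours in this order overlapped in their ranges over libraries, apart from the steps between TGFBI and TGFB2, between TGFBR2 and SKIL, and between LTBP1 and TGFB3. The order depends on merged exon lengths, which include exons that these cells may not use.

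**Figure D3:**
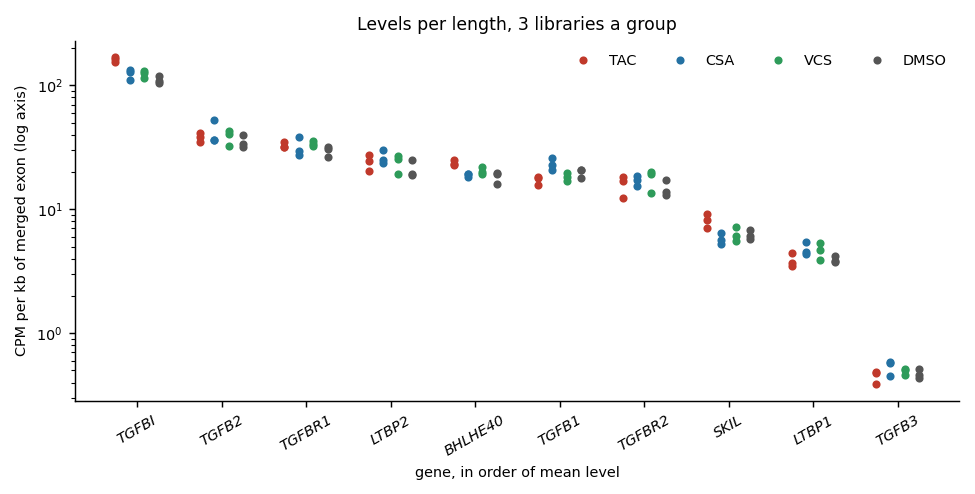
Level per kb of merged exon (CPM per kb, log axis) of the 10 genes in order of their mean, with 3 libraries a group. TGFBI, at 129.9 CPM per kb on average, stands clear of the 6 genes from TGFB2 to TGFBR2, which run into one another, and TGFB3 lies lowest at 0.486.

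In TAC against DMSO, the libraries of 3 of the 10 genes (TGFBI, SKIL and BHLHE40) did not overlap, all higher in TAC, where 5.99% of all genes were higher without overlap. Lower without overlap were 0 of the 10 genes, against 6.44% of all genes. Those 3 are the genes chosen for this contrast. The other 7 genes, named for their place in the pathway, ran from -0.20 for TGFB1 to 0.20 for LTBP2 on the log2 scale, all with overlapping libraries. Over all genes 7 passed an adjusted p of 0.05 in this contrast, which is 0.0354%; since replicate numbers pair these libraries, the count with the number as a block is also given, and it was 41 (0.207%). With the block the log2 fold change of TGFBI was 0.56 with an SE of 0.08, that of SKIL 0.38 with an SE of 0.07, and that of BHLHE40 0.38 with an SE of 0.07.

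For CSA against DMSO, 0 of the 10 genes passed an adjusted p of 0.05 in edgeR's quasi-likelihood test over all 19784 genes (adjusted p 0.939 to 0.96), where 0.0101% of all genes passed. At an unadjusted p under 0.05 the count was also 0, where 3.75% of all genes passed, and DESeq2 called 0. The log2 fold changes lay above 0 for 9 of the 10 genes, with a median of 0.20, against 49.0% of all genes and a median of 0.00. Without CSA library 3 they lay above 0 for 8 genes, with a median of 0.12. The largest were 0.32 (SE 0.16) for LTBP2 and 0.28 (SE 0.13) for LTBP1, which were 0.21 and 0.18 without that library. LTBP1 was the gene without overlap, higher in CSA, where 4.94% of all genes were higher without overlap. The TGFBI log2 fold change was 0.16, with a 95% interval of -0.06 to 0.38, and that of SKIL was -0.10, with an interval of -0.37 to 0.17. CSA library 3 was the highest CSA library for each of the 10 genes except SKIL, though by little for TGFB3 and BHLHE40. Without it the log2 fold change of TGFBR1 was -0.06, against 0.09 with it, and that of TGFBI was 0.11, against 0.16. Replicate numbers pair these libraries too, and with the block 6 of all genes (0.0303%) passed in place of 2, and the 10 genes had adjusted p of 0.4 to 0.805; 3 of them had an unadjusted p under 0.05 with the block, where 11.4% of all genes did.

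For VCS against DMSO, 0 of the 10 genes passed in edgeR's test (adjusted p 0.963 to 0.994), where 0.00505% of all genes passed; the count at an unadjusted p under 0.05 (3.27% of all genes) and the count by DESeq2 were also 0. Log2 fold changes were above 0 for 9 of the 10 genes, with a median of 0.16, against 50.9% of all genes and a median of 0.00; the median of the 10 genes was 0.10 without VCS library 1 and 0.09 without DMSO library 2. The largest was that of TGFBR2, 0.26 with a 95% interval of -0.11 to 0.63. TGFBR1 was the gene without overlap, higher in VCS, where 3.32% of all genes were higher without overlap. TGFBI differed by 0.16 with an interval of -0.06 to 0.38, and BHLHE40 by 0.16 with an interval of -0.05 to 0.36. The 3 contrasts with DMSO share the DMSO libraries, so low values in those libraries enter all of them.

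CSA and VCS are structural analogs given at the same dose and time, and their fold changes rest on neither the TAC nor the DMSO libraries, although the estimate of spread behind each SE, interval and p is shared by all 12 libraries. In edgeR's test 0 of the 10 genes passed (adjusted p 1 for each), where 0.0101% of all genes passed; at an unadjusted p under 0.05 (2.54% of all genes) the count was 1, TGFB1, by edgeR and by DESeq2, and DESeq2 called 0 after adjustment. TGFB1 averaged 74.3 ± 8.39 CPM in CSA and 59.0 ± 4.66 CPM in VCS (SD, n = 3 each), a log2 fold change of 0.33 (SE 0.11) with a 95% interval of 0.10 to 0.57 and an unadjusted edgeR p of 0.00897. It was the gene without overlap, higher in CSA, where 3.04% of all genes were higher without overlap. TGFBI differed by 0.00, with an interval of -0.22 to 0.22, SKIL by -0.12, with an interval of -0.39 to 0.15, and BHLHE40 by -0.11, with an interval of -0.31 to 0.09. For TGFB2 the interval ran from -0.23 to 0.45 and for TGFBR2 from -0.41 to 0.34, so differences of that size between the analogs are not excluded.

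**Figure D4:**
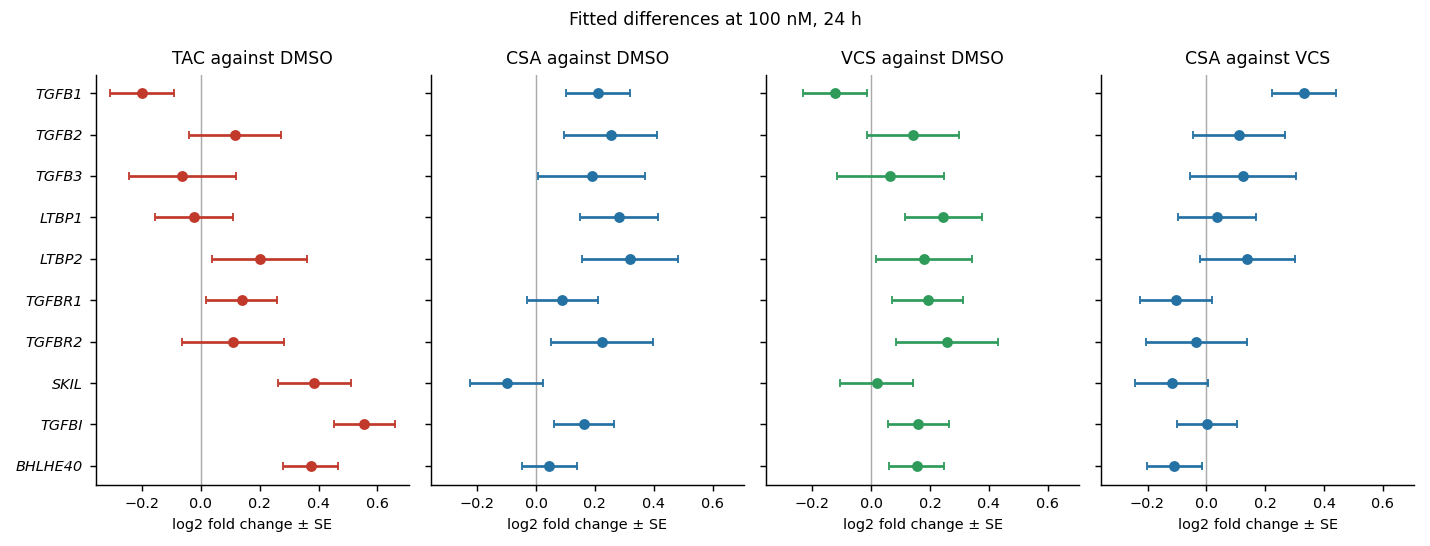
Fitted log2 fold changes (horizontal axis) with their SE for the 10 genes in TAC, CSA and VCS against DMSO and in CSA against VCS. In TAC the points of TGFBI, BHLHE40 and SKIL lie at 0.56, 0.37 and 0.39, and in CSA against VCS the point farthest from 0 is TGFB1 at 0.33.

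TAC was also set against the other inhibitors at the same dose, which is a description because TAC chose 3 of the members. Against CSA, TGFBI (log2 fold change 0.39, SE 0.10), SKIL and BHLHE40 were higher in TAC without overlap, where 6.74% of all genes were, and TGFB1 was lower without overlap at -0.41 (SE 0.11), where 6.84% of all genes were. Against VCS, TGFBI (0.40, SE 0.10) and BHLHE40 were higher in TAC without overlap, where 4.12% of all genes were. The TGFB1 difference from CSA was that of TAC at 55.9 ± 4.68 CPM and CSA at 74.3 ± 8.39 CPM (SD, n = 3 each).

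Over the 12 libraries, TGFB2 and LTBP2 had a Pearson r of 0.92 and LTBP2 and TGFBR2 an r of 0.91. With each group's mean removed these pairs kept 0.91 and 0.95. The TGFB2 values here leave out the reads assigned to TGFB2-OT1, which bears on each r of TGFB2. With both genes added, library 3 was the highest of TAC and of VCS, whereas for LTBP2 it was the lowest of both. The r of that sum with LTBP2 was not computed. TGFBI and BHLHE40 had an r of 0.86, SKIL and BHLHE40 0.79 and SKIL and TGFBI 0.76, and with the group means removed these were 0.47, 0.49 and 0.44. Within groups TGFBI ran closer to LTBP2 (0.84), TGFBR2 (0.82) and TGFB2 (0.75), against 0.46, 0.30 and 0.36 over all libraries. SKIL and TGFB3 ran against each other at -0.79, and at -0.83 within groups. These values describe libraries that share groups, numbers and scaling, and the 3 responsive genes share the TAC contrast that chose them. The deviation map places the highest TGFBI, BHLHE40 and SKIL in TAC, and the highest TGFB1, TGFB2, TGFB3, LTBP1, LTBP2 and TGFBR1 in CSA library 3.

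**Figure D5:**
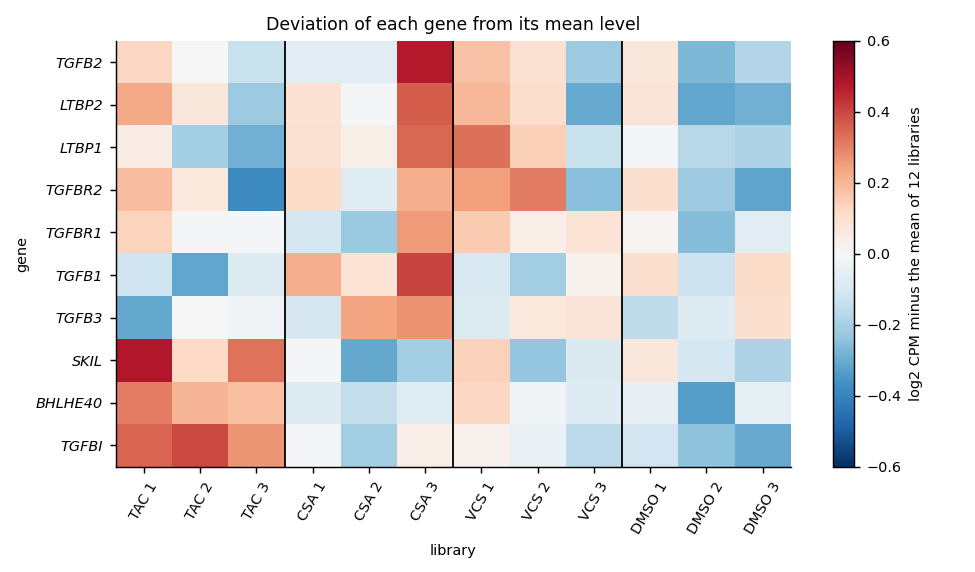
Deviation of log2 CPM from the mean of the 12 libraries (colour) for the 10 genes (rows) in each library (columns, TAC, CSA, VCS and DMSO from left to right). TGFBI, BHLHE40 and SKIL are above their means in all 3 TAC libraries, and CSA library 3 is above the mean for 8 of the 10 genes.

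Genes outside the 10 were ranked by how closely their log2 CPM followed TGFBI over the 12 libraries, among 12941 genes. TGFBI was chosen for its TAC level, so genes with a like TAC difference rank high. The closest were SC5D (r = 0.95), a sterol desaturase of cholesterol synthesis, PPM1A (0.92), a phosphatase known to act on SMAD2 and SMAD3, MFAP3L (0.90), ZC3H7A (0.89) and ATOH8 (0.89), a basic helix-loop-helix factor. With each group's mean removed, r was 0.75 for SC5D, 0.90 for PPM1A, 0.61 for MFAP3L, 0.48 for ZC3H7A and 0.64 for ATOH8. SC5D averaged 111 ± 8.57 CPM in TAC, 80.8 ± 11.96 CPM in CSA, 81.9 ± 4.75 CPM in VCS and 75.7 ± 5.02 CPM in DMSO (SD, n = 3 each).

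The rest of the pathway was read from 5 lists holding 103 genes, of which 97 were tested. The lists were also drawn up with earlier results known, so their counts in contrasts that involve TAC are not independent support. In TAC against DMSO 0 of the 97 passed an adjusted p of 0.05 in edgeR's test, against 0.0354% of all genes; 7 had an unadjusted p under 0.05, where 4.65% of all genes did, and DESeq2 called 0. With the replicate block 30 had an unadjusted p under 0.05, where 13.1% of all genes did. Among known target genes, 28 of 37 tested lay above 0 with a median log2 fold change of 0.18, against 49.0% and 0.00 for all genes, and all 6 with an unadjusted p under 0.05 were higher. That median was 0.08 without TAC library 1, 0.28 without DMSO library 1, 0.08 without DMSO library 2 and 0.10 without DMSO library 3, with 24 to 31 genes above 0. Among transducers and inhibitors 17 of 22 lay above 0 with a median of 0.04. The bioavailability list had 12 of 22 above 0, the receptors and co-receptors 5 of 12, and the activins and related ligands 5 of 8. With the replicate block 2 of the 97 passed, both higher in TAC, where 0.207% of all genes passed. SMAD7, the inhibitory SMAD that TGF-beta induces, averaged 54.6 ± 3.40 CPM in TAC and 39.5 ± 4.64 CPM in DMSO (SD, n = 3 each), with an edgeR adjusted p of 0.89 without the block and 0.0163 with it. IL11, a cytokine that TGF-beta induces in fibroblasts, averaged 135.0 ± 12.6 CPM in TAC and 100.0 ± 13.6 CPM in DMSO, with an edgeR adjusted p of 0.92 without the block and 0.0283 with it.

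Other genes of the lists had the smallest unadjusted p in this contrast without passing. SNAI1, a repressor of epithelial genes, had a TAC against DMSO log2 fold change of 0.57 (SE 0.14, edgeR adjusted p 0.579), and PMEPA1, a membrane inhibitor that TGF-beta induces, 0.27 (SE 0.11). PPM1A differed by 0.25 (SE 0.09), and ITGB6 and ITGB8, subunits of integrins that activate latent ligand, by 0.36 (SE 0.21) and -0.20 (SE 0.12). DCN, which encodes the ligand-binding proteoglycan decorin, differed by -1.20 (SE 0.57). With 1 library left out, DCN ran from -2.45 without TAC library 1 to -0.82 without TAC library 3. Its level was low, at 1.41 ± 1.42 CPM in TAC and 3.24 ± 1.07 CPM in DMSO (SD, n = 3 each). VASN, whose protein binds TGF-beta, differed by -0.22 (SE 0.13), CD109, a co-receptor, by 0.26 (SE 0.25) and BAMBI, a decoy receptor, by 0.12 (SE 0.13). GDF11 differed by 0.10 (SE 0.08), GDF15 by -0.29 (SE 0.26) and FSTL1 by 0.13 (SE 0.14). The values of 6 of the 14 genes named for this contrast (DCN, CD109, BAMBI, GDF11, GDF15 and FSTL1) moved by over 1.5 times when 1 TAC or DMSO library was left out, without a change of sign.

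In CSA against DMSO 0 of the 97 pathway genes passed in edgeR's test, against 0.0101% of all genes; 6 had an unadjusted p under 0.05, all of them higher, where 3.75% of all genes did, and DESeq2 called 0. With the replicate block 0 passed and 22 had an unadjusted p under 0.05, where 11.4% of all genes did. Above 0 were 16 of 22 bioavailability genes, 8 of 12 receptors and co-receptors, 14 of 22 transducers and inhibitors, 22 of 37 target genes and 4 of 8 activin genes. TNC, the matrix protein tenascin C, averaged 189 ± 4.83 CPM in CSA and 131 ± 24.9 CPM in DMSO (SD, n = 3 each), a log2 fold change of 0.53 (SE 0.21, edgeR adjusted p 0.939). LRRC32, which presents latent ligand on the cell surface, differed by 0.54 (SE 0.24), LTBP3 by 0.21 (SE 0.09), ITGB5 by 0.27 (SE 0.13), PDGFB by 0.38 (SE 0.17) and FSTL3, a secreted activin antagonist, by 0.39 (SE 0.16). The receptors ACVR1, ACVR1B and the receptor-associated TGFBRAP1 differed by 0.26, 0.21 and 0.37, and TGIF1, a SMAD corepressor, by -0.19. USP11 differed by 0.14, RNF111 by 0.25, CDH2 by 0.26, GDF11 by 0.17 and FSTL1 by 0.24. Without CSA library 3 LRRC32 was at 0.17, LTBP3 at 0.12, ACVR1 at 0.12, ACVR1B at 0.08, PDGFB at 0.22, CDH2 at 0.15 and FSTL1 at 0.03, and without DMSO library 3 TGIF1 was at -0.12 and RNF111 at 0.16.

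In VCS against DMSO 0 of the 97 passed in edgeR's test, against 0.00505% of all genes; 1 had an unadjusted p under 0.05, where 3.27% of all genes did, and DESeq2 called 0. Above 0 were 16 of 22 bioavailability genes, 8 of 12 receptors and co-receptors, 12 of 22 transducers and inhibitors, 25 of 37 target genes and 5 of 8 activin genes. That 1 gene was TNC, at 202 ± 41.7 CPM in VCS and 131 ± 24.9 CPM in DMSO (SD, n = 3 each), a log2 fold change of 0.62 (SE 0.21, edgeR adjusted p 0.963). LOX, the collagen cross-linking enzyme, differed by 0.24 (SE 0.11), COL4A1 by 0.31 (SE 0.16), ITGAV by 0.34 (SE 0.18), ITGB1 by 0.30 (SE 0.17), LRRC32 by 0.40 (SE 0.24), CD109 by 0.42 (SE 0.25) and TGFBRAP1 by 0.38 (SE 0.20). Smaller differences were those of ACVR1B (0.12), TGIF1 (-0.17), RNF111 (0.24), ZFYVE9 (0.23), FSTL1 (0.20), FSTL3 (0.21) and GDF15 (-0.17). GDF15 was at 0.04 without VCS library 2 and at -0.42 without VCS library 3. TGFBRAP1, CD109, ACVR1B, TGIF1, RNF111, ZFYVE9 and FSTL3 also moved by over 1.5 times when 1 VCS or DMSO library was left out, making 8 of the 15 genes named for this contrast.

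Between the analogs, in CSA against VCS, 0 of the 97 pathway genes passed in edgeR's test, against 0.0101% of all genes, 3 had an unadjusted p under 0.05, where 2.54% of all genes did, and DESeq2 called 0. Against CSA and against VCS, 0 of the 97 passed for TAC in edgeR's test, where 0.0303% and 0.0253% of all genes passed. At an unadjusted p under 0.05 were 14 against CSA, where 7.52% of all genes were, and 5 against VCS, where 3.63% were; DESeq2 called 1 each time, SNAI1. In TAC against CSA 20 of 37 target genes lay above 0 (median 0.00), 15 of 22 transducers and inhibitors, 4 of 22 bioavailability genes, 2 of 12 receptors and co-receptors and 3 of 8 activin genes. In TAC against VCS the counts were 23 of 37 (median 0.05), 15 of 22, 8 of 22, 3 of 12 and 3 of 8. In TAC against VCS, whose numbers were taken to pair, 41 of all genes (0.207%) passed with the block in place of 5. Among them were 3 of the 97, IL11, SMAD7 and SNAI1. The lists were drawn up with earlier results known, so these calls are not independent support.

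Markers of other cell types were read beside these differences. The summed level of 8 mesangial and fibroblast markers was 4061 to 4340 CPM in TAC, 4239 to 6205 CPM in CSA, 4196 to 4562 CPM in VCS and 3785 to 4543 CPM in DMSO. Most of this sum was COL1A1, itself TGF-beta responsive, which averaged 3653 CPM in TAC, 4417 CPM in CSA, 3739 CPM in VCS and 3666 CPM in DMSO. None of the markers was at 0 throughout, but ITGA8 (0 to 7 counts), PDGFRA (3 to 22) and DES (5 to 31) were very low. That of 8 airway and basal epithelium markers was 15.8 to 21.3 CPM in TAC, 12.5 to 20.5 CPM in CSA, 18.8 to 55.9 CPM in VCS and 21.2 to 42.8 CPM in DMSO, so TAC and CSA both lay at the low end. KRT5, KRT14, SFTPA1 and SFTPA2 had lower means in TAC and CSA than in VCS and DMSO, and KRT5 averaged 1.60 CPM in TAC, 1.41 CPM in CSA, 10.5 CPM in VCS and 7.96 CPM in DMSO. SFTPB of the same list ran the other way, at 14.3 CPM in TAC, 13.9 CPM in CSA, 11.1 CPM in VCS and 8.15 CPM in DMSO. Endothelial markers summed to 2.15 to 7.10 CPM in TAC, 2.46 to 5.32 CPM in CSA, 4.76 to 9.06 CPM in VCS and 4.62 to 9.97 CPM in DMSO. Leukocyte markers summed to 2.26 to 2.66 CPM in TAC, 1.94 to 3.15 CPM in CSA, 2.58 to 4.22 CPM in VCS and 2.12 to 3.34 CPM in DMSO. Their part in the levels of the 10 genes was not tested.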

How the data were processed

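RNA was sequenced from 12 podocyte libraries in 4 groups of 3. Per the labels, libraries were poly(A)-selected; the submitters' processing notes name Salmon and GRCh38, with versions and annotation release not given in the sources used here. The deposited table holds expected counts, as whole numbers per gene and library; whether UMIs were collapsed or strand was used is not stated, so the counts may not be independent molecules. Library totals were 28808213 to 36077072, and 0 columns belonged to other samples.

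Of 62262 genes, 22339 had no count; filterByExpr of edgeR 4.0.16 (R 4.3.3, minimum count 10) kept 19784. After TMM scaling, all 12 libraries entered 1 quasi-likelihood fit in edgeR with a term for group alone, leaving 8 residual degrees of freedom. P-values are two-sided, adjusted by Benjamini-Hochberg over all genes tested, with a threshold of 0.05. An SE is the log2 fold change divided by the square root of F, and 95% intervals use the same SE. CPM come from edgeR, with a prior count of 2 for log2 CPM. Positions and exon lengths are from GENCODE 29 (GRCh38), promoter windows from RefSeq (GRCh38.p14), which matched all 10 genes. Scripts were tested on simulated data.

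Deviations of same-numbered libraries from their group means correlated above 0.1 in every pair for TAC and DMSO (0.31, 0.11, 0.38), CSA and DMSO (0.15, 0.10, 0.22) and TAC and VCS (0.23, 0.25, 0.53). By this cut, numbers were taken to pair those groups. The pairing comes from the data, not from a label that explains the numbers. Replicates of a group differed by more than sampling noise, and each was counted as 1 sample. That spread does not show whether they came from separate cultures.

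The 10 genes and the lists were chosen with earlier results of these data known. The text names all 10, and from each list, against DMSO, genes past the threshold, otherwise the 3 of smallest unadjusted p with a mean log2 CPM of at least 1, and the 5 genes most like TGFBI. Some genes, SMAD7 among them, are shared between lists. TNC, IL11 and SNAI1 in other contrasts, and the overlapping and marker genes, were named after their values were seen. Alternatives were RLE size factors, no filter, DESeq2 1.42.0, the replicate block, only the groups compared, each library left out, and a fit without the 4 libraries numbered 3, which was listed because earlier results had shown that those libraries stand apart.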

Additional observations from a re-analysis of the deposited data

How the results depend on the processing

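The choice of model moved the counts of all genes called. For TAC against DMSO, CSA against DMSO, VCS against DMSO, CSA against VCS, TAC against CSA and TAC against VCS, in that order, the main counts were 7, 2, 1, 2, 6 and 5. Without a filter on low counts they were 131, 86, 69, 70, 87 and 101, and with DESeq2 they were 38, 8, 7, 12, 44 and 40. With the replicate block they were 41, 6, 0, 6, 65 and 41. Fitting only the groups compared gave 1 for TAC against DMSO, 0 for VCS against DMSO, 1 for TAC against CSA and 0 for TAC against VCS. Without the 4 libraries numbered 3 the counts were 3 for TAC against DMSO, 0 for CSA against DMSO, 6 for CSA against VCS, 1 for TAC against CSA and 9 for TAC against VCS. Leaving out 1 library at a time gave 0 to 10, 0 to 2, 0 to 8, 0 to 7, 0 to 6 and 0 to 12. For TAC against DMSO it was 1, 0 and 0 without TAC replicate 1, 2 or 3 and 3, 2 and 2 without DMSO replicate 1, 2 or 3; the highest counts came without VCS replicate 1 (8 in VCS against DMSO) and VCS replicate 3 (7 in CSA against VCS, 12 in TAC against VCS). The cause of these moves was not tested.

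Of the pathway genes, where the main counts were 0, no filter called COL1A2 and DCN in TAC against DMSO (2), TNC in VCS against DMSO (1), IL11 in TAC against CSA (1) and COL1A2, COL3A1 and IL11 in TAC against VCS (3); DESeq2 called 1 in each of the last 2; the block called 2 in TAC against DMSO and 3 in each of TAC against CSA and TAC against VCS; and leaving out 1 library called 0.

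Among the 10 genes, none was called in the 3 tested comparisons under any of 18 alternatives, with edgeR or DESeq2 adjusted p from 0.208 upward. By the cut of 0.1 for every pair, numbers were not taken to pair VCS with DMSO, CSA with VCS or TAC with CSA. In each of these, 1 or 2 pairs were under 0.1, although 11 of 12 libraries correlated best with their own number. VCS and DMSO missed the cut narrowly, at 0.28, 0.0975 and 0.43. In that comparison the 10 genes had edgeR adjusted p of 0.451 to 0.959 with the block. With the block the adjusted p of TGFB1 in CSA against VCS was 0.208, and the block changed no call of a member. Of 1080 values, 43 had another sign than the main value, and 5 moved past the replicate spread, all without the libraries numbered 3: in CSA against VCS TGFB2 was -0.20, LTBP1 -0.17 and LTBP2 -0.11, and in TAC against CSA TGFB2 was 0.13 and LTBP2 0.11. In TAC against DMSO, with 1 library left out, TGFBI stayed between 0.52 and 0.61, SKIL between 0.30 and 0.48 and BHLHE40 between 0.30 and 0.42. RLE scaling shifted the median of all genes by under 0.1. TGFB3 had the fewest counts of the 10 genes, 63 to 99 per library.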
